A study of Arabidopsis thaliana with 4 samples.

Results

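The genes of 25 microRNA families, those named MIR156 to MIR172, MIR319, MIR390 to MIR399 and MIR408 with any letter suffix, were examined for open chromatin in seedlings of 4 Arabidopsis thaliana accessions. Members were chosen by symbol alone, and 97 of the 326 nuclear miRNA genes of the gene table carried such a symbol. DNase I-seq, which sequences DNA released by DNase I cuts and so marks accessible chromatin, had been run on whole seedlings of Bur-0, Bay-0 and Est-1 and of Tsu-1, with 1 library and 1 list of peaks per accession. Where 4 values follow each other without names, they stand in the order Bur-0, Bay-0, Est-1, Tsu-1. All plants were 7 days old, were grown in long days (16 h of light at 22°C, 8 h of dark at 20°C), and carried the transgenes UBQ10:NTF and ACT2:birA, which tag nuclei with biotin for capture. The labels give Col-0 as the genetic background of every sample although each is named for another accession, and Tsu-1 of the sample labels is called Tsu-0 in the text on the series. With 1 library per accession no difference could be set against replicate spread or tested. Because whole seedlings were used, a site open in few cells and a site weakly open in many cannot be told apart.

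MicroRNAs are cut from hairpins within longer primary transcripts, which RNA polymerase II makes from promoters lying ahead of the hairpin. The mature RNA, bound by ARGONAUTE1, finds messenger RNAs by base pairing and cuts them or blocks their translation. In plants most targets of the old families encode transcription factors that set growth phase, organ borders, leaf polarity and auxin response, while other families answer shortage of sulfate, phosphate or copper. The families miR158, miR161 and miR163 are known mainly from Arabidopsis and its relatives, so "conserved" holds for most of the 97 genes rather than for all. The annotated genes are about as long as a hairpin (68 to 411 bp, median 124 bp), and the table gives no strand, so the promoter side of a gene could not be told.

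The lists held 25298, 28821, 29699 and 27388 nuclear peaks, nearly all 150 bp wide, and sequencing depth is unknown. Each peak carries the authors' signal value, from which ranks were made: the rank of a peak is its percentile among the nuclear peaks of its list, and the strongest has rank 100. Of the marker genes looked up, RBCS1A, LHCA2 and LHCB2.1 for photosynthetic tissue and SHR, SCR and PIN2 for root had a peak in all 4 lists, and the seed storage genes SESA2, SESA3 and SESA4 had none. A gene was called open in a list when a peak overlapped the gene or the 1000 bp on either side of it by at least 1 bp. A gene with no such peak is one with no call, which does not show that its chromatin was closed.

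Open chromatin near these miRNA genes was mostly either shared by all accessions or absent from all. Of the 97 genes, 45 were open in all 4 lists (46.4%, exact 95% interval 36.2 to 56.8), 15 in some lists and 37 in none (38.1%, 28.5 to 48.6); intervals cover counting error only. By the same rule 54.8% of the 27444 protein-coding genes were open in all 4 lists and 25.9% in none. Among the 229 other miRNA genes 27.5% were open in all 4 lists and 55% in none, and among all nuclear genes 47.4% and 35.1%. Other short RNA genes spread widely: 39.5% of tRNA genes and 66.6% of snoRNA genes were open in all 4 lists and 44.8% and 13.6% in none, and lncRNA genes stood at 46.2% and 37.4%. The 97 genes thus lay near the share of nuclear genes as a whole and above the other miRNA genes, of which 63 were open in all 4 lists; these differences were not tested. Protein-coding genes are longer (median 2078 bp against 124 bp), which widens their windows, whereas the other miRNA genes (median 159 bp) have windows of a similar length. With a fixed window of 1000 bp on each side of the gene midpoint, 44 of the 97 genes and 20.5% of protein-coding genes were open in all 4 lists. For a protein-coding gene of median length that window lies inside the gene and misses its ends. For a hairpin it is mostly flank, so these shares describe unlike places and do not correct for length. Per list, 49, 54, 57 and 49 of the 97 genes were open, against 60.3, 68.1, 68.9 and 63.4% of protein-coding genes.

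**Figure D1:**
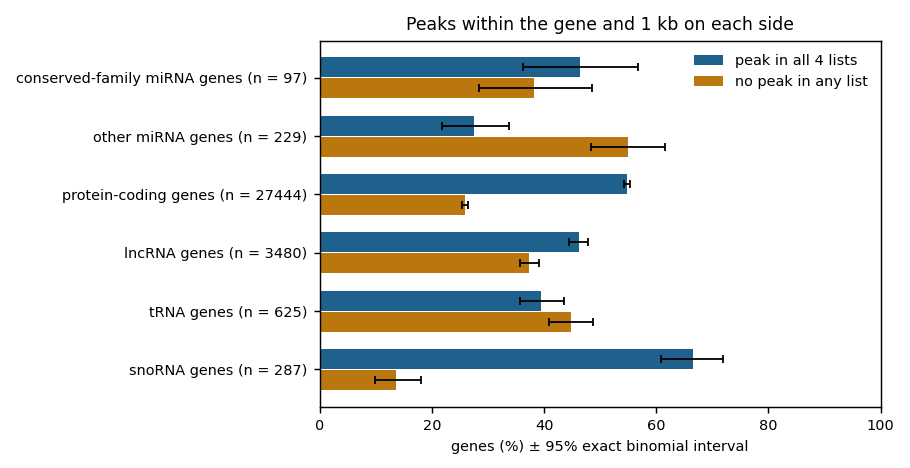
Share of genes (x axis, %) with a peak in all 4 lists (blue) and in no list (brown) within the gene and 1000 bp on each side, by gene class, with exact 95% binomial intervals. The conserved-family miRNA genes stand at 46.4% open in all 4 lists, between the other miRNA genes (27.5%) and the protein-coding genes (54.8%).

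The share was given separately for windows with and without a protein-coding gene. Of the 45 conserved-family genes with a protein-coding gene inside the window, 22 were open in all 4 lists (48.9%, 33.7 to 64.2), and of the 52 without one, 23 were (44.2%, 30.5 to 58.7). For the other miRNA genes these counts were 49 of 160 (30.6%, 23.6 to 38.4) and 14 of 69 (20.3%, 11.6 to 31.7), a wider gap. In each class the 2 intervals overlap. Ownership of a peak is less sure. When only peaks nearer to the miRNA gene than to any other annotated gene were kept, 24 genes were open in all 4 lists and 60 in none.

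Peaks stood beside the hairpins and seldom on them. In each list 2 peaks overlapped a member gene, out of 72, 82, 84 and 74 peaks in the windows. They belonged to MIR157c, of the miR156 and miR157 family, and MIR169a, of the family that targets NF-YA transcription factors. Counted by midpoint over the 4 lists, density was 0.139 peaks per kb per list inside the genes and 0.11 in the first 200 bp outside them, then 0.483 at 200 to 400 bp, 0.361 at 400 to 600 bp, 0.496 at 600 to 800 bp and 0.374 at 800 to 1000 bp. From 1000 to 3000 bp it ranged from 0.264 to 0.406, so the low density close to the gene stood out more than any rise beyond it. Protein-coding genes had the opposite profile at their ends, with 0.889 peaks per kb per list in the first 200 bp and 0.373 at 200 to 400 bp. The other miRNA genes had 0.166 and 0.347 there, and 0.232 at 400 to 600 bp. Inside the genes density was 0.114 for protein-coding and 0.104 for other miRNA genes. Few peaks on the annotated gene was thus not particular to the members. The midpoint of a member's strongest peak lay a median 599, 579, 592 and 546 bp from the gene in the 4 lists.

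**Figure D2:**
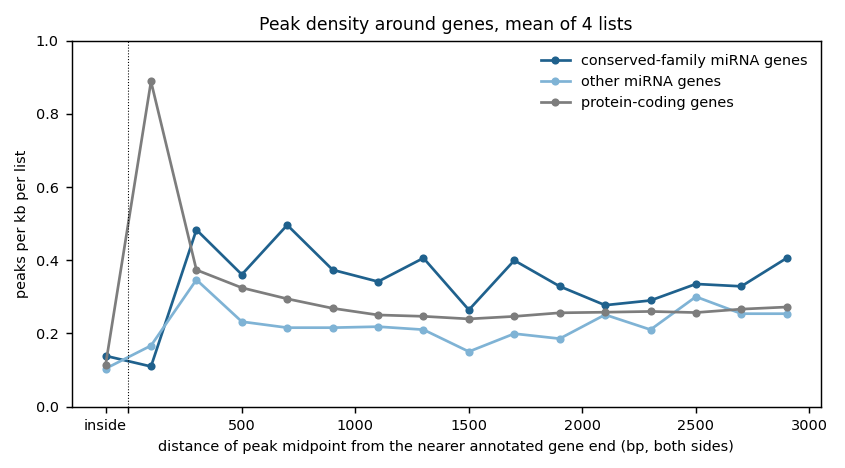
Density of peak midpoints (y axis, peaks per kb per list, mean of the 4 lists) against distance from the nearer annotated gene end (x axis, bp, both sides together, bins of 200 bp; "inside" is the gene itself). Density near miRNA genes is low in the first 200 bp (0.11) and higher at 200 to 400 bp (0.483), whereas protein-coding genes peak in the first 200 bp (0.889).

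The windows held 101 distinct regions, a region being the union of overlapping or touching peaks of the 4 lists. Of these, 53 were called in all 4 lists (52.5%, 42.3 to 62.5), close to the 54.3% of all 36153 nuclear regions. A single region in all 4 lists stood in 42 of the 45 windows that were open everywhere. In the other 3, at MIR156a, MIR159b and MIR164c, the 4 lists had their calls at different places. No more than 1 peak per list was called at 22 of the 45.

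**Figure D3:**
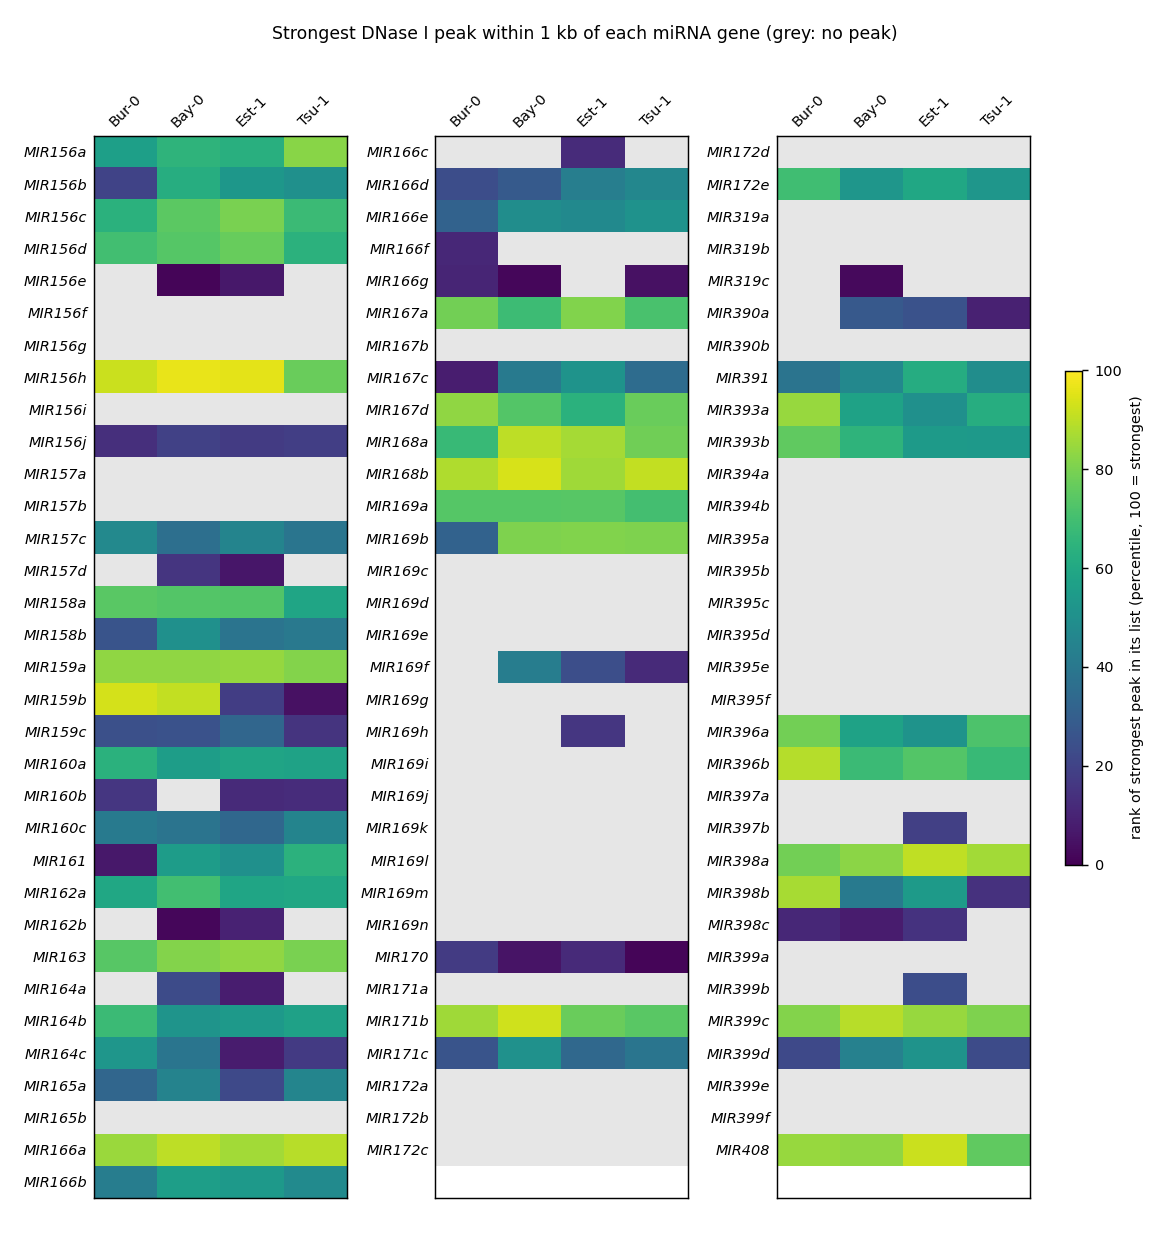
Rank of the strongest peak (colour, percentile within its list, 100 for the strongest) within 1000 bp of each of the 97 miRNA genes (rows) in the 4 accessions (columns), with grey for no peak. Whole groups such as MIR395a to MIR395f and MIR169i to MIR169n are grey, while MIR166a, MIR168b and MIR159a are high in every column.

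The 8 genes whose lowest rank was highest came from families of several kinds. Their ranks spanned 3.0 (MIR159a) to 19.4 (MIR156h) percentiles over the lists, a span that choosing by the lowest rank limits. MIR168b, which makes the miRNA that targets AGO1 itself, had signals of 281, 417, 360 and 270, at ranks 88.1, 94.0, 85.7 and 90.8. All 4 values came from peaks at exactly the same place, chromosome 5, 18359101 to 18359250, which is 189 bp from the miRNA gene but only 24 bp from the protein-coding gene AT5G45310. MIR166a, whose product restricts the leaf polarity genes of the HD-ZIP III class, had signals of 255, 358, 364 and 255 and ranked 84.8, 90.01, 86.2 and 89.2 in the same order. Its region (chromosome 2, 19175741 to 19175930) lay 177 bp from the miRNA gene and 4774 bp from any protein-coding gene. MIR159a, a source of the miRNA that represses GAMYB-like factors such as MYB33, had signals of 244, 297, 346 and 203 and the narrowest spread of these genes, at ranks 83.3, 83.6, 84.3 and 81.3, from a region 324 bp away (chromosome 1, 27713741 to 27713950).

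MIR399c, of the phosphate starvation family, had signals of 233, 350, 348 and 200 and ranked 81.6, 89.3, 84.5 and 80.7. MIR398a, whose product targets copper superoxide dismutases, had signals of 218, 290, 417 and 230 and ranked 78.8, 82.7, 90.5 and 86.0, with its strongest region 327 bp from it and 256 bp from NRP1. MIR408, which targets copper proteins such as plantacyanin, had signals of 252, 296, 439 and 176 and ranked 84.5, 83.4, 92.0 and 75.4 from 1 peak per list at the same place (chromosome 2, 19319421 to 19319570), 243 bp from MIR408 and 23 bp from AT2G47010. These 3 nutrient genes were thus among the 8 of highest lowest rank, in seedlings from MS agar. MIR156h reached the highest rank of any member, in Bay-0, with 91.8, 96.7, 96.1 and 77.3 over the lists and signals of 325, 482, 528 and 184. Its region stood 82 bp from the neighbouring gene AT5G55840 and 643 bp from MIR156h. MIR171b, whose product targets HAM genes of the shoot meristem, had signals of 260, 396, 288 and 173 and ranked 85.6, 92.8, 77.0 and 74.6. Its strongest region stood 796 bp from MIR171b but 623 bp from AT1G11740, and its other region in all 4 lists overlapped AT1G11730.

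Peaks of the very highest ranks were few near the members. Ranks above 90 were reached by 2, 5, 3 and 1 of the open members of the 4 lists (4.08, 9.26, 5.26 and 2.04%). For open protein-coding genes these shares were 11, 12.1, 12.2 and 11.3%, and for the other miRNA genes, with windows of like length, 8.22, 11.2, 12.1 and 14.0%. The member shares rest on 1 to 5 genes per list, and the difference was not tested. The median rank of the strongest peak was 64.0, 55.5, 51.5 and 57.1 for the members, against 53.0, 54.6, 54.2 and 53.1 for protein-coding genes. The member median was thus higher than the protein-coding one in Bur-0, nearer to it in the other lists, and below it in Est-1. In Bur-0 the quartiles were nevertheless close, 26.1 and 78.8 for members against 25.2 and 77.7 for protein-coding genes. These differences were not tested. The other miRNA genes had medians of 54.9, 48.2, 53.9 and 49.0.

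The phase change families were counted separately, beside 47.4% of all nuclear genes open in all 4 lists. Differences between these families were not tested. miR156 and the near-identical miR157 hold plants in the juvenile phase by repressing SPL factors, and 7 of their 14 genes were open in all 4 lists, namely MIR156a, MIR156b, MIR156c, MIR156d, MIR156h, MIR156j and MIR157c. MIR156c, known with MIR156a as a main source of the miRNA in young shoots, ranked 64.0, 74.8, 79.8 and 68.1, and MIR156a ranked 56.3, 64.9, 63.0 and 82.3. The MIR156a calls made up 3 adjacent regions of which none was in all 4 lists. MIR156i and MIR156j lie in the table inside SPL4 and SPL9, which belong to the SPL class that miR156 targets, and the regions near MIR156j overlapped SPL9 or OEP16-3; they ranked at most 19.2 in any list. MIR156f, MIR156g, MIR156i, MIR157a and MIR157b had no peak. At MIR156b, MIR156d, MIR156h and MIR156j every called peak lay no nearer to the miRNA gene than to another annotated gene. For miR172, which acts later by repressing AP2-like factors, only MIR172e of 5 genes was open in any list, at 69.2, 52.4, 59.4 and 52.6. MIR172a, MIR172b, MIR172c and MIR172d had none within 1000 bp, and their nearest peaks in any list were 1523, 1759, 1392 and 1693 bp away. With 2000 bp on each side, MIR172a and MIR172c were open in all 4 lists, MIR172b in 2 and MIR172d in 1.

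Calls within 1000 bp differed between miR159 and miR319, which have related sequences and 3 genes each. That difference was not tested, and 47.4% of all nuclear genes were open in all 4 lists. All 3 MIR159 genes were open in all 4 lists, with MIR159c the weakest at 24.5, 25.1, 33.0 and 15.2. The MIR159c region lay 884 bp from it and overlapped the protein-coding gene LRB1. Of the 3 MIR319 genes, whose miRNA limits TCP factors of leaf growth, MIR319c had a single weak peak in Bay-0 (rank 2.6), 50 bp from the gene. A further MIR319c peak in Bay-0 and Est-1 lay 1001 bp away, just outside the window. MIR319a and MIR319b had no peak. With 2000 bp on each side, MIR319c was open in all 4 lists, MIR319b in 2 and MIR319a in 0.

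Of the 11 genes of the auxin families miR160, miR167, miR390 and miR393, 7 were open in all 4 lists. All nuclear genes stood at 47.4% and other miRNA genes at 27.5%, and differences from these shares were not tested. For miR160, which represses ARF10, ARF16 and ARF17, MIR160a ranked 64.0, 55.7, 58.3 and 57.5, and MIR160c ranked 41.1, 38.5, 33.4 and 45.0. For miR167, which represses ARF6 and ARF8, MIR167d ranked 83.6, 73.4, 63.7 and 77.3 with a region on each side of it (188 and 185 bp away), and MIR167a ranked 78.8, 68.6, 81.2 and 71.3. MIR167c was weaker and MIR167b had no peak, the nearest lying 4177 bp away. Both genes of miR393, which targets the auxin receptors TIR1 and AFB1 to AFB3, were open throughout. MIR393a ranked 84.6, 57.7, 50.1 and 62.1 and MIR393b 75.6, 65.2, 54.4 and 53.6, highest in Bur-0 in each case. miR390, which starts the production of small RNAs against ARF2, ARF3 and ARF4, was the exception. MIR390a lacked a Bur-0 peak and ranked 27.8, 25.2 and 9.1 in the other lists, and MIR390b had none in any list.

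Organ patterning families were mixed. miR165 and miR166 repress HD-ZIP III genes and so set the lower face of the leaf, and 5 of their 9 genes were open in all 4 lists. For all nuclear genes that share was 47.4% and for protein-coding genes 54.8%, and no difference was tested. Behind MIR166a, the others, MIR166b, MIR166d, MIR166e and MIR165a, ranked between 21.9 and 56.01. The MIR165a region overlapped another annotated gene, AT1G08765. Counting only peaks nearest to the miRNA gene, MIR166a and MIR166b were open in 4 lists, MIR166d in 2, MIR166e in 1 and MIR165a in 0. MIR166c, MIR166f and MIR166g were called in some lists only, and MIR165b had no peak, the closest being 1700 bp away in every list. In the miR164 family, which limits CUC1 and CUC2 and so the borders between organs, MIR164b ranked 68.3, 51.7, 53.6 and 57.1. Within the miR170 and miR171 family, MIR171c ranked 26.1, 50.5, 33.9 and 39.0, MIR170 was the weakest gene called in all 4 lists (17.4, 5.2, 11.8 and 1.3), and MIR171a had no peak. Both genes of miR396, which restrains the growth-regulating GRF factors, had several regions each. MIR396b, with no protein-coding gene nearer than 5936 bp to any of its regions, ranked 88.9, 68.3, 73.3 and 67.4, and MIR396a 78.6, 57.7, 51.5 and 72.2. For both genes the Bur-0 rank was the highest. Neither gene of miR394, which targets the F-box gene LCR and acts in the shoot meristem, had a peak, the nearest lying 1710 and 1617 bp away.

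Of the 4 genes whose miRNAs target AGO1 or DCL1, 3 were open in all 4 lists (75%, 19.4 to 99.4). That interval holds the 47.4% of all nuclear genes, and a difference was not tested. MIR168a, the partner of MIR168b, ranked 67.3, 89.9, 86.4 and 78.4 from a region 284 bp from it. For miR162, which targets the processing enzyme DCL1, MIR162a ranked 59.6, 69.8, 58.9 and 59.6, and MIR162b was called in Bay-0 and Est-1 only, at 1.7 and 9.7. The MIR162a region lay 716 bp from it and overlapped the protein-coding gene NF-YB12. Counting only peaks nearest to the miRNA gene, MIR168a was open in 4 lists, MIR162b in 2, and MIR162a and MIR168b in 0.

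Nutrient families held both high-ranked genes and genes with no peak. Counting miR395, miR397, miR398, miR399 and miR408 together, a grouping made after the values were seen, 5 of 18 genes were open in all 4 lists (27.8%, 9.69 to 53.5), 3 in some and 10 in none. The share in all 4 lists was 27.5% for the other miRNA genes and 47.4% for all nuclear genes, and the interval holds both. None of the 6 genes of miR395, which is induced by sulfate shortage and targets ATP sulfurylases, had a peak in any list. Their nearest peaks lay 1069 to 3370 bp away. In the miR399 family, induced by phosphate shortage and aimed at the ubiquitin-conjugating enzyme gene PHO2, MIR399c was strong and MIR399d ranked 22.2, 43.9, 51.5 and 22.7, with its region 6 bp from AT2G34200. MIR399b was called in Est-1 only, and MIR399a, MIR399e and MIR399f had no peak. The copper families miR397, miR398 and miR408 were open at MIR398a, MIR398b and MIR408, while MIR397a had no peak and MIR397b had 1 in Est-1.

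The miR169 family, which represses NF-YA subunits of the CCAAT-binding factor, had the most genes without a peak of any family. Of its 14 genes, 2 were open in all 4 lists, 2 in some and 10 in none. Among all nuclear genes 35.1% had no peak in any list, and among other miRNA genes 55%; a difference from these shares was not tested. With 14 genes, miR169 is also the largest family together with miR156 and miR157. MIR169a was the richest member of all, with 4 peaks in Bur-0 and 5 in each other list over 5 regions, and ranked 73.6, 73.8, 74.0 and 70.2. MIR169i to MIR169n form 3 pairs with overlapping windows on chromosome 3, and the nearest peak to any of the 6 lay 4249 to 8182 bp away. MIR169d and MIR169e, also without a peak, form a further such pair. Members with overlapping windows are not independent, and with each such group counted as 1 there were 88 loci, 45 of them open in all 4 lists.

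The genes of families with a narrow distribution were open in all 4 lists, as was MIR391, a relative of the miR390 genes. The share was 47.4% for all nuclear genes and 27.5% for other miRNA genes, and a difference from these 5 genes was not tested. MIR158a ranked 74.5, 73.4, 72.8 and 58.8 from a region 50 bp away, and MIR158b 26.1, 50.1, 38.4 and 40.4. MIR163, whose product targets methyltransferase genes, ranked 73.8, 81.6, 83.6 and 79.9. MIR391 ranked 38.5, 46.5, 62.1 and 49.0. The regions called in all 4 lists at MIR158b and MIR391 overlapped the protein-coding genes AT1G55590 and AT5G60400. With only peaks nearest to the miRNA gene, MIR158b was open in 0 lists and MIR391 in 2. Without the 5 genes of miR158, miR161, miR163 and miR391, 40 of the remaining members were open in all 4 lists.

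The 15 genes called in some lists only had low ranks wherever they were called, as did protein-coding genes of that kind. Their best ranks had a median of 15.6, against 18.3 for the 5293 protein-coding genes in 1 to 3 lists (19.3% of all). The highest was 42.5 (MIR169f in Bay-0), while 11.1% of those protein-coding genes passed 50, a share that 15 genes are too few to set against. Among them 12 had a call in Est-1, 9 did in Bay-0, and 4 did in each of the other lists. For protein-coding genes the shares in list order were 28.6, 68.9, 73.1 and 44.8%, which is also the order of list length.

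By pattern, MIR156e (ranks 1.3 and 6.4), MIR157d (15.6 and 5.9), MIR162b and MIR164a (22.7 and 8.1) were called in Bay-0 and Est-1. All 4 members in exactly 2 lists had that pair, which also made up 49.5% of the protein-coding genes in 2 lists. Called only in Est-1 were MIR166c at 12.3, MIR169h at 15.8, MIR397b at 19.0 and MIR399b at 23.7. MIR166f was called only in Bur-0, at 11.1. The signals behind these calls were low: 59 and 71 for MIR156e, 84 and 70 for MIR157d, 60 and 77 for MIR162b and 98 and 74 for MIR164a. Those of the genes called once were 82 (MIR166c), 89 (MIR169h), 96 (MIR397b), 107 (MIR399b), 73 (MIR166f) and 62 (MIR319c), beside list medians of 130, 155, 172 and 108. MIR169f and MIR390a lacked a Bur-0 call, MIR160b a Bay-0 call, MIR166g an Est-1 call and MIR398c a Tsu-1 call.

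In the lists that called them, taken in the usual order, MIR169f ranked 42.5, 24.0 and 11.8 and MIR160b ranked 15.8, 11.8 and 12.7. MIR166g ranked 10.4, 1.7 and 4.7, and MIR398c 11.1, 7.7 and 14.8. Their signals were 137, 108 and 54 for MIR169f, 79, 81 and 55 for MIR160b, 72, 60 and 46 for MIR166g and 73, 71 and 87 for MIR398c, and 109, 111 and 51 for MIR390a. These peaks lie in the lower part of their lists. Of the 31 pairs of such a gene and a list without a call, 16 had a peak of that list within 2000 bp.

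Among the 45 genes open in all 4 lists, the range of rank over the lists had a median of 18.3, close to the 17.2 of protein-coding genes. Ranges above 40, a limit set after the values were seen, occurred at 7 of the 45 (15.6%), at 10 of 63 other miRNA genes (15.9%) and at 7.83% of protein-coding genes. Bur-0 had the lowest rank at 18 of the 45 (40%, against 38.1% of other miRNA and 44.8% of protein-coding genes) and the highest at 14 (31.1%, against 20.6 and 19.7%).

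**Figure D4:**
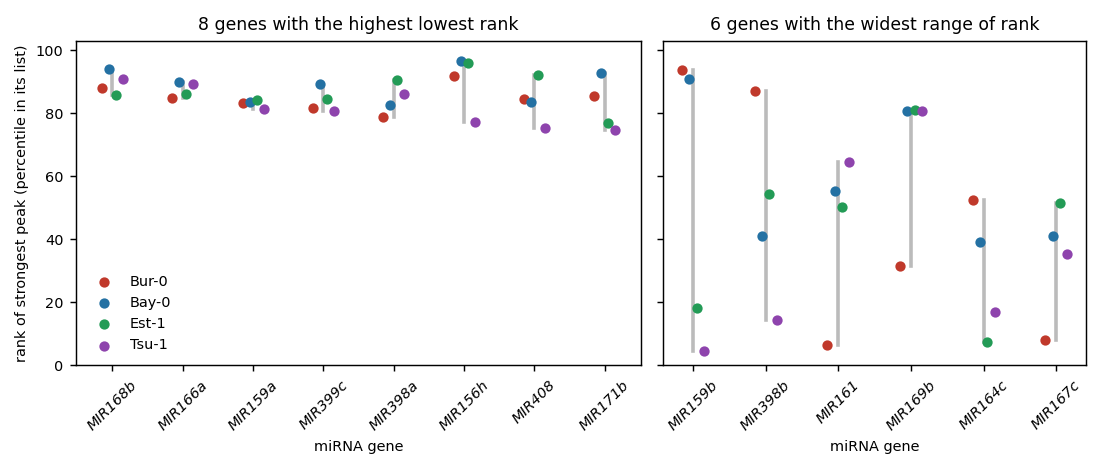
Rank of the strongest peak (y axis, percentile within its list) for the 8 miRNA genes with the highest lowest rank (left) and the 6 with the widest range (right), 1 point per accession and a grey bar from lowest to highest. MIR159a spans 81.3 to 84.3, while MIR159b spans 4.7 to 93.7.

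The widest range, at MIR159b, involved peaks on both sides of the window's edge. Its strongest peak had signals of 357, 370, 94 and 46, at ranks 93.7, 90.9, 18.1 and 4.7. The Bur-0 and Bay-0 peaks lay 875 and 835 bp from the gene. Est-1 and Tsu-1 had strong peaks beside them, at ranks 96.2 and 93.7, but 1115 and 1095 bp away and so outside the window (chromosome 1, 6219381 to 6219530 in Est-1). Bur-0 and Bay-0 had peaks there as well, at 90.2 and 94.9. All 4 accessions were thus open beside MIR159b, with the strong peaks of Est-1 and Tsu-1 just outside 1000 bp.

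At MIR398b the 4 lists placed their peak at different spots in 1 region (chromosome 5, 4690521 to 4690910). Bur-0 had signal 271 and rank 86.9 at 111 bp from the gene, Bay-0 134 and 41.0 at 151 bp, Est-1 185 and 54.4 at 291 bp, and Tsu-1 57 and 14.3 at 351 bp. The rank was highest at the closest peak and lowest at the farthest, but Est-1 ranked above Bay-0 from farther away. A relation of rank to distance was not tested. MIR398b overlaps AT5G14550 in the table. Of the small nuclear RNA genes beside it, U5.10 lies within the window and U2.17 across its edge.

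At 3 further genes Bur-0 was the lowest list, with 1 region called in all 4. MIR161, whose product targets pentatricopeptide repeat genes, had signals of 67, 169, 172 and 140, at ranks 6.5, 55.3, 50.1 and 64.4 (chromosome 1, 17825381 to 17825570, 114 bp from the gene). MIR169b had 100, 276, 317 and 199, at ranks 31.5, 80.7, 80.9 and 80.6 (chromosome 5, 8526561 to 8526770). The second MIR169b region beyond the window, 1671 bp away in Bur-0, ranked 83.2 there and 98.1 to 98.8 in the others. MIR167c had signals of 69, 134, 176 and 85, at ranks 8.0, 41.0, 51.5 and 35.5. Cutting each list to its strongest 25298 peaks, the length of the Bur-0 list, leaves Bur-0 ranks unchanged by construction. In the other lists MIR161 then ranked 41.5 to 61.5 and MIR169b 77.6 to 78.9. This allows for list length only and is no independent support for a low Bur-0 rank. At MIR164c Bur-0 was instead the highest list, with signals of 135, 130, 73 and 60 and ranks of 52.5, 39.0, 7.5 and 16.8, and the Est-1 peak stood apart from the region of the others. TAIR10 is the only genome named in the submitters' processing notes for these accessions, and the part that sequence differences play in these ranks was not tested.

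**Figure D5:**
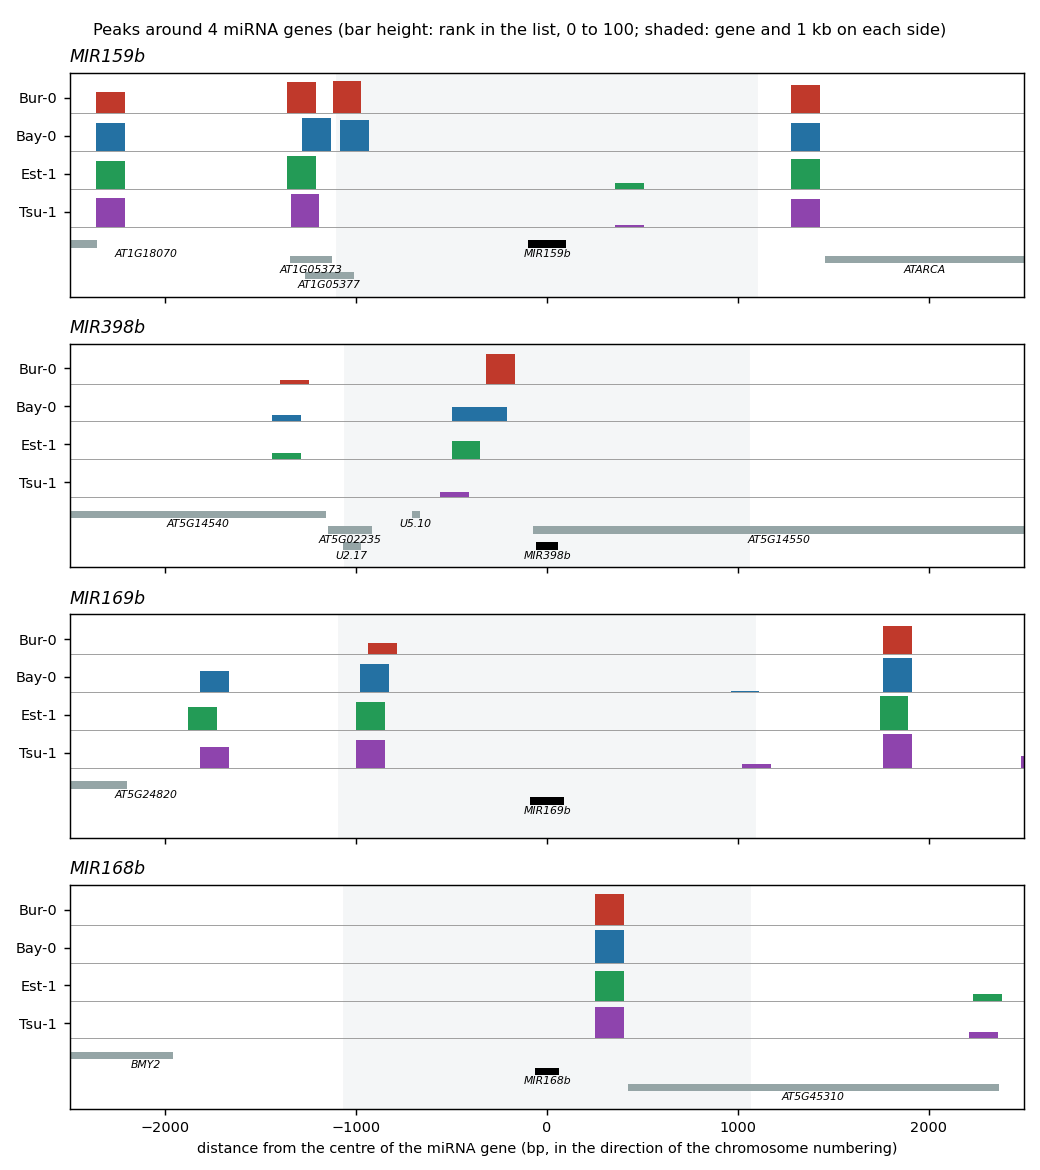
Peaks of the 4 accessions (rows; bar height gives the rank in the list, 0 to 100) against distance from the centre of the miRNA gene (x axis, bp), with annotated genes below (black for the miRNA gene, grey for others) and the window of 1000 bp on each side shaded. At MIR159b the strong peaks straddle the window edge, at MIR398b they shift position between lists, at MIR169b Bur-0 is lower at 31.5, and at MIR168b all 4 peaks coincide.

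Genes that make or use miRNAs, and genes that miRNAs target, were open more often than the miRNA genes, over windows that are longer. Of 92 such protein-coding genes, 70 were open in all 4 lists (76.1%, 66.1 to 84.4), 15 in some and 7 in none, beside 54.8% of all protein-coding genes. Of the 15 biogenesis genes 9 were open everywhere. HYL1, a partner of DCL1, ranked 68.6, 89.02, 82.9 and 76.9, and AGO1, the slicer that loads miRNAs, 53.5, 73.4, 75.6 and 61.7. DCL1, which cuts the hairpins, had no Bur-0 peak and ranked 35.8, 33.9 and 5.6 in the others. HST, an exportin-like protein of the pathway, was called only in Bur-0 (20.1), CDC5 only in Tsu-1 (26.3) and TGH in all but Tsu-1, while the cap-binding gene ABH1 and the nuclease gene SDN1 had no peak.

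The target lists can be set beside their miRNA genes. All 12 auxin targets were open in all 4 lists, beside 7 of 11 miRNA genes of these families. Their ranks differed widely, from ARF6 at 99.2 to 99.7 and AFB2 at 97.2 to 99.2 down to AFB1 at 15.2 to 35.02, ARF4 at 15.1 to 35.5 and ARF3 at 10.996 to 22.7. All 7 GRF targets and all 7 NF-YA targets were open, the latter beside a miR169 family in which 10 of 14 genes had no peak. NF-YA2 ranked 96.5 to 97.96 and NF-YA8 21.6 to 33.9. Of the MYB and TCP targets 7 of 8 were open (MYB101 only in Est-1), of the patterning targets 10 of 12 (PHV only in Bay-0 and Est-1, CUC2 in all but Bur-0), and of the AP2 targets 5 of 6 (TOE2 in all but Tsu-1). SPL targets reached 6 of 10, with SPL11 and SPL15 called only in Est-1 and SPL4 and SPL13A in none.

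Nutrient targets were the lowest of these lists, with 7 of 15 open everywhere. The ATP sulfurylase gene APS1 ranked 91.2 to 96.8 although none of the miR395 genes had a peak. PHO2, the miR399 target, was called only in Bur-0, at 9.7. The copper superoxide dismutase gene CSD2 had no Bur-0 peak but ranked 83.9, 55.1 and 83.6 in the others. Of the laccase genes, those without full calls were LAC4, LAC12 and LAC17 (no list), LAC3 (only Tsu-1) and LAC13 (all but Tsu-1, at ranks up to 4.2), and the plantacyanin gene ARPN was called only in Tsu-1, at 1.0.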

How the data were processed

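Peak lists of 4 DNase I-seq libraries, 1 per accession, were used as deposited. Nuclei were captured through biotin and digested with DNase I (45 units, 3 minutes, 25°C), per the labels' protocols. Bowtie 0.12.7 was used with TAIR10, per the submitters' processing notes. Read depth, read filtering and the tool and cutoff that made the peaks were not given in the sources used here. Signal, as deposited, takes whole numbers whose scale is not stated. The −log10 p of each peak, also as deposited, stops at 324. It was used only to break ties in signal, when lists were shortened and when the strongest peak of a gene was picked. Organelle peaks were left out. Ranks are percentiles of signal among nuclear peaks of a list, with ties sharing the mean.

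Gene positions and names came from a RefSeq table of assembly TAIR10.1, matched by symbol, and for the 92 pathway and target genes by locus. Moving the regions by up to 20000 bp against gene ends, in steps of 50 bp, gave the best match at a shift of 100 bp or less on each of the 5 chromosomes. The table has no strand and no sequence, so the planned side of the gene and promoter motifs were not reported. Shares have exact (Clopper-Pearson) 95% intervals (scipy 1.17.1, Python 3.11.15). Calls, regions and ranks were checked on simulated lists. Genes named by rule with their ranks were the 8 with the highest lowest rank, the 6 with the widest range, all called in 1 to 3 lists, and the strongest and weakest called gene of each family of 3 or more, and pathway or target genes not called in every list; ranks of other genes were added after the values were seen. The members and lists were chosen with earlier results of these data known. Alternatives were other windows, shorter lists, stricter overlap, nearest peaks, merged loci, leaving out a list and other rank definitions.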

Additional observations from a re-analysis of the deposited data

How the results depend on the processing

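No paired analysis was possible because each accession has 1 library. With 1 library per accession, leaving out a list means counting over the other 3. The count of miRNA genes open in all lists was then 46 to 47, the percent of regions in all lists 54.0 to 62.9% (highest without Bur-0), the number of regions 94 to 100, and the percent of protein-coding genes 55.4 to 59.7%.

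Of 107 recomputed values of 21 results, 44 moved by more than the limit used, a factor of 1.5 for counts and the 95% interval (shares) or 1 SD over the 4 lists (ranks) for other values; the other 63 include sizeable shifts. With 500 bp on each side, 23 genes were open in all 4 lists and 58 in none (29, 31, 34 and 30 per list from Bur-0 to Tsu-1), with 51 regions, and 19.2% of other miRNA and 47.9% of protein-coding genes were open throughout. Families with a gene open in all 4 lists fell from 20 to 14. With 2000 bp, 63 genes were open in all 4 lists (67, 72, 75 and 68 per list), 19 had no peak, regions numbered 184, and those shares were 36.2 and 63.3%. Keeping the stronger 50% of each list left 25 genes in all 4 lists, 2 in exactly 3 and 59 in none (28, 32, 33 and 28 per list), 54 regions, 39 pathway and target genes, 12.7% of other miRNA and 26.2% of protein-coding genes. Keeping peaks nearest to the miRNA gene gave 24 and 60 (29, 31, 32 and 30 per list). The protein-coding share was 20.5% with a midpoint window, 51.0% with lists of equal length and 54.1% with peak midpoints. Median ranks of summed signal were 75.6, 69.2, 57.2 and 68.1, and the strongest peak lay over the gene in 0% of members in Bay-0 and 0% in Est-1. Apart from windows and shorter lists, whose construction changes what is counted, the cause was not tested.

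The side of the gene was not told, for want of strand, and only the share of peaks over the gene was recomputed. Depth is unknown, so a missing call cannot be told from a shallow library.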

Other observations

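Some miRNA genes outside the chosen families have well-known roles, and 6 of them, picked for those roles, were looked up in the same way. MIR403, whose product targets AGO2, was open in all 4 lists with ranks of 62.3, 80.8, 76.2 and 75.2 from Bur-0 to Tsu-1. MIR173, which starts trans-acting small RNA production, ranked 34.4, 73.2, 75.7 and 56.6, lowest in Bur-0. MIR827, of the phosphate response, ranked 74.5, 73.6, 79.9 and 80.9. MIR824, which targets AGL16, had no Bur-0 peak and ranked 7.1, 11.3 and 6.4 in the others. MIR828, which triggers cutting of TAS4, had no Tsu-1 peak and ranked at most 7.7. MIR857, a neighbour of MIR397b that also targets a laccase gene, was called only in Est-1, at 19.0, from the peak that lies in the MIR397b window.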
